A study of Mus musculus with 8 samples.

Results

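The 42 genes described here encode the nucleolar machinery of ribosome biogenesis, together with Myc, and were read in RNA from the distal colon of mice kept in enriched or conventional housing. They were chosen by name, as genes of ribosomal RNA processing and RNA polymerase I with Myc, and partly because Ncl stood higher in the enriched group. All 42 were among the 16130 genes of the table, and all 42 passed the filter on low counts, as did 14311 genes in all. Because the choice used the contrast between the groups, the differences of the members are given as a description, with no test of their own.

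Enriched housing (EE) held 4 libraries and non-enriched, conventional housing (NE) held 4. Both groups had lived in their housing for 4 months and carried the same alleles, Tcf4Het/+ and ApcMin/+, with no other treatment. ApcMin is a truncating allele of Apc, a brake on Wnt signalling, and its carriers grow intestinal adenomas. In the gut literature TCF4 is the product of Tcf7l2, through which Wnt signals act. The labels give neither the age of the mice nor whether each library came from its own animal, and no group without these alleles was analysed here. The comparison asks which transcripts differ with housing.

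Ribosomes are assembled in the nucleolus. RNA polymerase I transcribes a long precursor from the rDNA repeats, small nucleolar RNPs (snoRNPs) modify it, and successive sets of assembly factors cut and fold it into the small and large subunits. MYC raises the transcription of many of these genes. In the intestine Myc is a target of Wnt signalling, and it is active in the dividing cells of the crypt.

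Counts assigned to genes summed to between 4735764 and 6266902 in the EE libraries and to between 6120185 and 10586851 in the NE libraries. The members held 0.264% to 0.343% of them in EE and 0.211% to 0.281% in NE. EE 4 stood apart in its tissue markers. Its median of 10 smooth muscle genes was −2.33 on the log2 scale, relative to the mean over the 8 libraries, against −0.49 to 0.39 in EE 1 to EE 3 and 0.09 to 0.78 in NE. Results are therefore also given without EE 4. EE 3 differed in other markers. Its median of 9 colonocyte genes was −1.04, against −0.91 in EE 4 and 0.15 to 0.48 in the other libraries. In whole tissue, a change in the number of cells of a type and a change in the RNA per cell cannot be told apart.

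As a set, the members stood slightly higher in EE. Of the 42, 40 (95.2%) had a log2 fold change (EE minus NE) above 0, against 50.3% of all genes tested. Their median log2 fold change was 0.26, against 0.002 for all genes, whose quartiles were −0.19 and 0.19. The largest value was 0.66, for Ncl. The 2 members below 0 were Ubtf at −0.01 and Polr1c at −0.08. Without EE 4, 38 of 42 stood above 0 (50.8% of all genes) and the median was 0.23. Without EE 3, 39 members stood above 0 and the median was 0.24. Whichever 1 library was left out, 36 members stayed above 0, and Ubtf, Polr1a, Polr1c, Utp20, Rrp9 and Nop16 changed sign in at least 1 case.

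Single members did not stand out in the test across all genes. With edgeR's quasi-likelihood test, 0 of the 42 members and 0 of all 14311 genes (0%) had an adjusted p under 0.05. At an unadjusted p under 0.05, 12 members and 820 genes in all (5.73%) were higher in EE, and 0 members and 537 genes (3.75%) were lower. The 12 were Myc, Polr1b, Mybbp1a, Ncl, Nolc1, Ddx21, Gar1, Nhp2, Nop14, Rrp12, Rrs1 and Rrp1b. DESeq2 called 1 member, Ncl, and 12 of 14302 genes (0.0839%). The higher level of Ncl in EE had helped to choose the members, so its call restates that choice. In the simulated data described below, DESeq2 made 39 false calls and edgeR 8. With limma-voom the count was 0 of the members and 0 of all genes (0%). In 6 members, all higher in EE, the 4 EE values lay above all 4 NE values, as they did in 411 genes (2.87%). The other direction held for 289 genes (2.02%) and 0 members.

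Of the members, Ncl alone had an FDR under 0.05 in the authors' deposited table, as did 386 of 16130 genes (2.39%). Here too the value of Ncl restates the choice of the members. Ncl stood there, in the authors' deposited table, at a log2 fold change of −0.64 and an FDR of 0.03297. The authors' deposited table does not say which group is the numerator, and its sign was opposite to EE minus NE in 97.8% of the genes tested. In the authors' deposited table Myc had a log2 fold change of −0.47 and an FDR of 0.1417.

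Ncl encodes nucleolin, an abundant nucleolar protein that binds the rDNA, the precursor RNA and assembly factors. The gene lies at chr1:86344719-86359400 on the minus strand of GRCm38. It had 431, 298, 353 and 348 CPM (counts scaled by the TMM-adjusted library size) in EE 1 to EE 4, against 222, 216, 219 and 247 CPM in NE 1 to NE 4. The groups did not overlap, and EE 1 was the highest library. The means were 357 ± 55.2 CPM in EE and 226 ± 14.2 CPM in NE (SD, n = 4 each). On the log2 scale the difference was 0.66, its standard error (SE) 0.14, and without EE 4 it was 0.68.

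Myc encodes the transcription factor that drives growth programmes, ribosome biogenesis among them. It lies at chr15:61985391-61990374 on the plus strand. Its levels were 88.8, 55.9, 71.0 and 113 CPM in EE 1 to EE 4, against 55.6, 48.0, 58.1 and 60.8 CPM in NE 1 to NE 4. EE 2 lay within the NE range, and the other 3 EE libraries lay above it. Myc averaged 82.1 ± 24.5 CPM in EE and 55.6 ± 5.51 CPM in NE (SD, n = 4 each), and its log2 fold change was 0.56 (SE 0.20). Without EE 4, its highest library, it was 0.37 (SE 0.16).

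**Figure D1:**
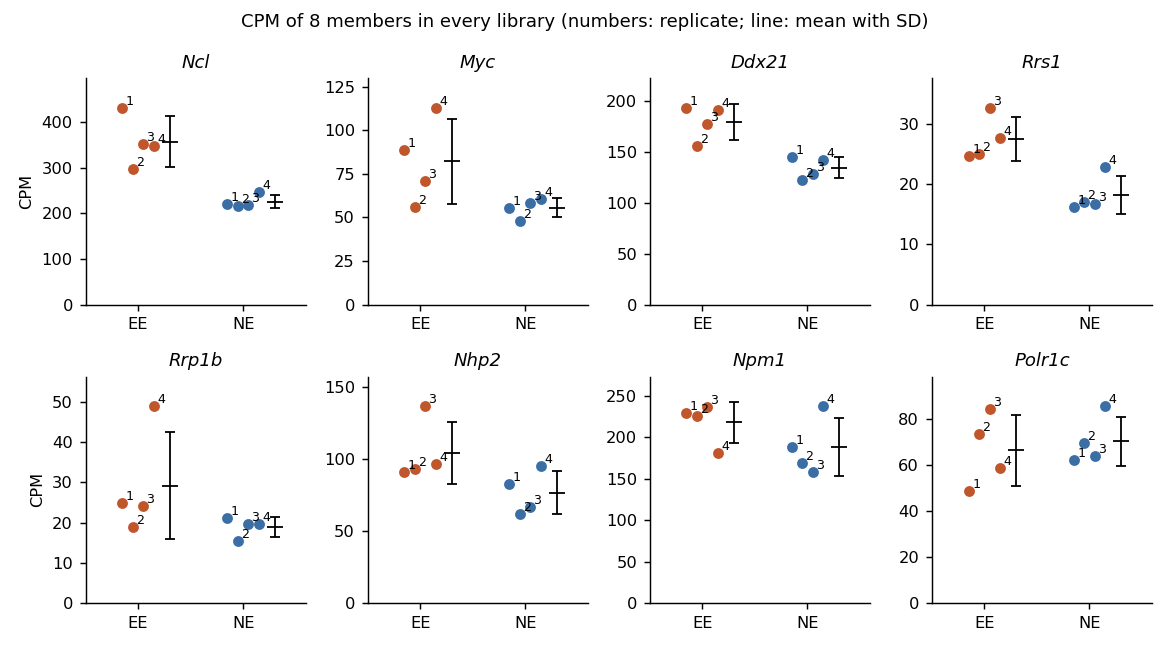
CPM of 8 members in each library, EE left and NE right of each panel, with the replicate number beside each point and the mean and SD to the right of the points. The EE points of Ncl, Ddx21 and Rrs1 all lie above the NE points, while Npm1 and Polr1c overlap between the groups and EE 4 stands far above the other EE libraries in Rrp1b.

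The promoters of several members are shown because the genes varied together from library to library. RefSeq (GRCm38.p6) gave a window of 250 bases before the start for 35 of the 42 members. The other 7 were Myc, Bop1, Fbl, Rrs1, Tcof1, Npm1 and Rrp12. The letters searched on both strands were CACGTG, the E-box that MYC and related proteins can bind, CGGAAG, a core of ETS sites, and GGGCGG, the GC box. The first 5 stretches below end at the base before the start, and capitals mark these motifs. Ncl, at chr1:86359456-86359705 (minus strand), is given over the whole window. Ddx21, at chr10:62602299-62602418 (minus strand), Nolc1, at chr19:46075727-46075846 (plus strand), and Nop14, at chr5:34660149-34660268 (minus strand), are further members whose groups did not overlap. Polr1c, at chr17:46248046-46248165 (minus strand), is the member with the lowest fold change with all libraries, although not without EE 1, EE 4, NE 2 or NE 4. Nop2, at chr6:125131796-125131855 (plus strand), is the 1 member with an E-box in its window.
Ncl: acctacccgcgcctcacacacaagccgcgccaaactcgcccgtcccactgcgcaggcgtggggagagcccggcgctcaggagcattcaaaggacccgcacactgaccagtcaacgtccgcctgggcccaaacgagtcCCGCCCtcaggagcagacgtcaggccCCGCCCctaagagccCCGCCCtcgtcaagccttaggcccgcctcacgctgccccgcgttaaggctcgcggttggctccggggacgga
Ddx21: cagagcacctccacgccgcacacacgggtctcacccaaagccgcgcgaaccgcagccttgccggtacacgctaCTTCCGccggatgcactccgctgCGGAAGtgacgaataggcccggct
Nolc1: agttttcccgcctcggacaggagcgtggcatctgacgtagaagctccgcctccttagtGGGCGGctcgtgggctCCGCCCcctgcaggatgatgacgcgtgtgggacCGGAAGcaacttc
Nop14: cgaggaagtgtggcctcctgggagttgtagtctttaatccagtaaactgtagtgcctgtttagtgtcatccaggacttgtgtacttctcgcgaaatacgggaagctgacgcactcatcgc
Polr1c: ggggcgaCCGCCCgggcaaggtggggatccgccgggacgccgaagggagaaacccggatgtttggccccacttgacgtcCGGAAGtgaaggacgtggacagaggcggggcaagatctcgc
Nop2: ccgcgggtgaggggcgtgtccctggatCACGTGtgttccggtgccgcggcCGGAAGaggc
The Ncl window held 3 GC boxes. The 120 bases shown for Nop14 held none of the 3 motifs, although its whole window of 250 bases did hold a GC box.

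Across the 35 members with a window, GC boxes stood in 26 (74.3%), against 35.4% of all 27025 genes with a window. Those 27025 genes were not limited to the 14311 genes tested here, so the members are set against an unlike set. ETS cores stood in 13 (37.1%), against 15.3%, and the E-box in 1 (2.9%), against 6.9%. Member windows had a median of 57.8% G and C, against 52.4% in all windows, and both GGGCGG and CGGAAG are rich in these bases. Of 63 GC box matches 2 overlapped another motif, as did 2 of 19 ETS matches. The motifs did not sort the members by fold change. The median log2 fold change was 0.24 in members with an ETS core and 0.26 in those without, and 0.26 both with and without a GC box. A match is a description of the letters and says nothing of whether a factor binds.

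Members of rDNA transcription spanned the widest range of the role groups, from −0.08 to 0.56. Of 8, 6 had log2 fold changes above 0, with a median of 0.30. Mybbp1a, a nucleolar protein that binds MYB and RNA polymerase I, had 176 to 226 CPM in EE apart from 149 CPM in EE 2, against 119.8 to 167 CPM in NE, a log2 fold change of 0.52 (SE 0.17). Polr1b, the second largest subunit of the polymerase, was at 40.6 ± 5.94 CPM in EE and 31.8 ± 5.14 CPM in NE (SD, n = 4 each), and its log2 fold change was 0.35. Taf1d, a subunit of the promoter factor SL1, had 0.29.

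The largest subunit, Polr1a, and Tcof1, whose product treacle recruits the polymerase to rDNA, depended on EE 4. Polr1a had 44.8, 35.2, 46.7 and 79.0 CPM in EE 1 to EE 4, against 34.7 to 49.6 CPM in NE, and its log2 fold change of 0.26 was −0.02 without EE 4, against 0.17 to 0.40 without any other library. Tcof1 had 64.7 CPM in EE 4, 32.5 to 41.0 CPM in the other EE libraries and 29.8 to 40.5 CPM in NE. Its log2 fold change of 0.32 was 0.07 without EE 4.

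Polr1c, a subunit shared with RNA polymerase III, had 48.8, 73.5, 84.2 and 58.8 CPM in EE 1 to EE 4, against 62.1, 69.5, 64.0 and 85.5 CPM in NE 1 to NE 4. EE 1 and EE 4 lay below every NE library, and EE 2 and EE 3 lay within the NE range. The log2 fold change was −0.08 (SE 0.18), and its sign turned without EE 1 (0.04) and without NE 4 (0.03). Ubtf, which binds along the rDNA repeats and opens them for transcription, was at 138 ± 9.96 CPM in EE and 139 ± 11.3 CPM in NE (SD, n = 4 each), a difference well within the spread of either group.

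The 5 nucleolar proteins with several tasks had log2 fold changes from 0.21 to 0.66, with a median of 0.42, and 3 of them did not overlap between the groups. Besides Ncl these were Ddx21 and Nolc1. Ddx21, an RNA helicase of polymerase I transcription and rRNA processing, had 156 to 193 CPM in EE against 123 to 145 CPM in NE, and a log2 fold change of 0.42 (SE 0.12). Nolc1, a chaperone of snoRNPs, had 56.3 to 85.5 CPM in EE against 39.1 to 56.1 CPM in NE, so that EE 2 and NE 1 nearly met. Its log2 fold change was 0.48 (SE 0.16).

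Npm1, whose product nucleophosmin builds the outer layer of the nucleolus, had 229, 225, 236 and 181 CPM in EE 1 to EE 4, against 189, 169, 158 and 238 CPM in NE 1 to NE 4. All 4 EE values lay within the NE range, and NE 4 was the highest library. The log2 fold change was 0.21 (SE 0.15), with 0.34 without NE 4 and 0.14 without NE 3. Of the 50-base words in its coding sequence 78.4% also occur in other genes, among them 10 pseudogenes, so its count is uncertain. Gnl3, the GTPase nucleostemin, had 76.2 to 91.4 CPM in EE and 47.7 to 99.8 CPM in NE, a log2 fold change of 0.26 (SE 0.20) that was 0.12 without NE 2 and 0.50 without NE 4.

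The 6 members of box C/D snoRNPs, which guide methylation, and box H/ACA snoRNPs, which guide pseudouridylation, all had log2 fold changes above 0. These ran from 0.16 to 0.56 with a median of 0.44. The core protein genes outside the members, Nop10 (box H/ACA) and Nhp2l1 (box C/D), had 0.11 (SE 0.24) and 0.02 (SE 0.32). Left out 1 at a time, libraries moved Nop10 between 0.01 and 0.37 and Nhp2l1 between −0.15 and 0.34. Gar1, a core protein of box H/ACA particles, had 13.0, 8.61, 12.5 and 13.8 CPM in EE 1 to EE 4, against 7.11, 7.45, 8.54 and 9.45 CPM in NE 1 to NE 4. EE 2 lay inside the NE range, and the other 3 EE libraries lay above it. Its log2 fold change was 0.56 (SE 0.20). Dkc1, the pseudouridine synthase dyskerin, had 59.5, 65.3, 69.5 and 61.5 CPM in EE 1 to EE 4, against 60.8, 46.0, 50.4 and 72.4 CPM in NE 1 to NE 4. NE 4 was the highest library, and the log2 fold change was 0.16 (SE 0.15). It was 0.07 without NE 2, 0.10 without NE 3 and 0.29 without NE 4.

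Nhp2, the third box H/ACA core protein among the members, had 91.1, 92.8, 137 and 96.6 CPM in EE 1 to EE 4, against 82.4, 61.9, 66.7 and 94.8 CPM in NE 1 to NE 4. EE 3 stood apart, NE 4 lay among the other EE values, and the log2 fold change was 0.45 (SE 0.18). On the box C/D side Nop56, Nop58 and Fbl are the core proteins among the members. The log2 fold change was 0.49 for Nop56 (SE 0.25) and 0.25 for Nop58 (SE 0.14). Without NE 4 the value of Nop56 was 0.74. Nop56 was at 91.6 and 91.8 CPM in EE 3 and EE 4, against 79.1 CPM in NE 4 and 39.1 to 57.2 CPM in the other 5 libraries. Fbl, the methyltransferase fibrillarin, had 15 to 29 counts per library and shares 86.4% of its coding 50-base words with other genes, so its log2 fold change of 0.42 (SE 0.33) is uncertain. It ran from 0.26 without NE 3 to 0.64 without NE 4.

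Factors of the small subunit had a lower median than the snoRNP members. All 10 had values above 0, from 0.01 to 0.50, with a median of 0.26. Rrp12, which takes part in maturation and export of the small subunit, had 21.7, 23.2, 26.4 and 32.7 CPM in EE 1 to EE 4, against 18.8, 13.8, 19.8 and 21.4 CPM in NE 1 to NE 4. The groups did not overlap, although EE 1 and NE 4 nearly met, and the log2 fold change was 0.50 (SE 0.18). Nop14, of the small subunit processome, had 27.2 to 31.7 CPM in EE against 21.95 to 24.1 CPM in NE, a log2 fold change of 0.32 (SE 0.12).

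The t-UTP proteins among the members, which load first on the precursor RNA, had nearly equal values. The log2 fold changes of Utp15, Wdr75, Wdr43 and Heatr1 were 0.28, 0.27, 0.26 and 0.26, and in each NE 2 was the lowest library. Without NE 2 they were 0.18, 0.19, 0.18 and 0.19. Outside the members, the t-UTP genes Cirh1a and Nol11 had 0.18 (SE 0.13) and 0.15 (SE 0.12), and Cirh1a had 0.09 without EE 4. Bysl, which acts late in small subunit maturation, had 0.34, or 0.21 without EE 4, and the helicase Ddx10 had 0.21. Rrp9, a protein of the U3 snoRNP, was at the other end with 21.9, 22.8, 29.9 and 25.5 CPM in EE 1 to EE 4, against 28.4, 18.8, 23.8 and 29.0 CPM in NE 1 to NE 4. EE 3 was its highest library and NE 2 its lowest, with the other 6 between 21.9 and 29.0 CPM. The log2 fold change of 0.01 (SE 0.17) turned sign without EE 3 (−0.08), NE 2 (−0.11) or NE 3 (−0.01). Utp20, the member with the longest coding sequence, had a log2 fold change of 0.05, which was −0.07 without EE 4.

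Large subunit factors had the lowest median, 0.18, with all 13 above 0. Rrs1, which helps to bring the 5S particle into the large subunit, had 24.6 to 32.6 CPM in EE against 16.3 to 22.9 CPM in NE. Its groups did not overlap, and the log2 fold change was 0.60 (SE 0.16) with all libraries and 0.61 without EE 4. Rrp1b, a nucleolar factor of large subunit assembly, had 24.8, 19.0, 24.2 and 49.0 CPM in EE 1 to EE 4, against 21.2, 15.3, 19.6 and 19.6 CPM in NE 1 to NE 4. Its log2 fold change of 0.63 (SE 0.27) rested largely on EE 4, without which it was 0.27 (SE 0.17).

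The 3 members of the PeBoW complex, which processes the large subunit RNA, had small values, with 0.13 for Bop1, 0.16 for Pes1 and 0.18 for Wdr12. Nop2, the methyltransferase of large subunit RNA, had 0.21, and Noc3l, which acts early in large subunit assembly, had 0.16. Noc2l, whose yeast counterpart pairs with that of Noc3l, had 0.27 with all libraries and 0.14 without EE 4, and Nle1, which works with the remodelling ATPase midasin, had 0.26 and 0.16. The helicases Ddx18 and Ddx56 had 0.18 and 0.10. Left out 1 at a time, libraries moved Bop1 between 0.04 (without EE 3) and 0.21 (without EE 1), Wdr12 between 0.10 (without NE 2 or NE 3) and 0.33 (without NE 4) and Nle1 between 0.15 (without NE 2) and 0.44 (without NE 4). They moved Ddx18 between 0.06 (without NE 2) and 0.32 (without NE 4), and Ddx56 between 0.04 (without NE 2 or NE 3) and 0.18 (without EE 2). Nop2 was 0.12 without NE 2, and Noc3l 0.10 without NE 1. Nop16 had the lowest value of the group, 0.07 (SE 0.18), with 37.0, 43.8, 49.3 and 36.3 CPM in EE 1 to EE 4, against 40.1, 31.3, 34.9 and 52.9 CPM in NE 1 to NE 4. Single libraries decided this value, which was −0.02 without EE 3, −0.03 without NE 2 and 0.23 without NE 4. Nip7, an assembly factor of the large subunit, had 43.3, 56.3, 76.2 and 46.9 CPM in EE 1 to EE 4, against 53.1, 34.1, 39.0 and 62.5 CPM in NE 1 to NE 4, and EE 1 and EE 4 lay below NE 1 and NE 4. The log2 fold change of Nip7, 0.24 (SE 0.23), was 0.06 without EE 3, 0.12 without NE 2 and 0.41 without NE 4.

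**Figure D2:**
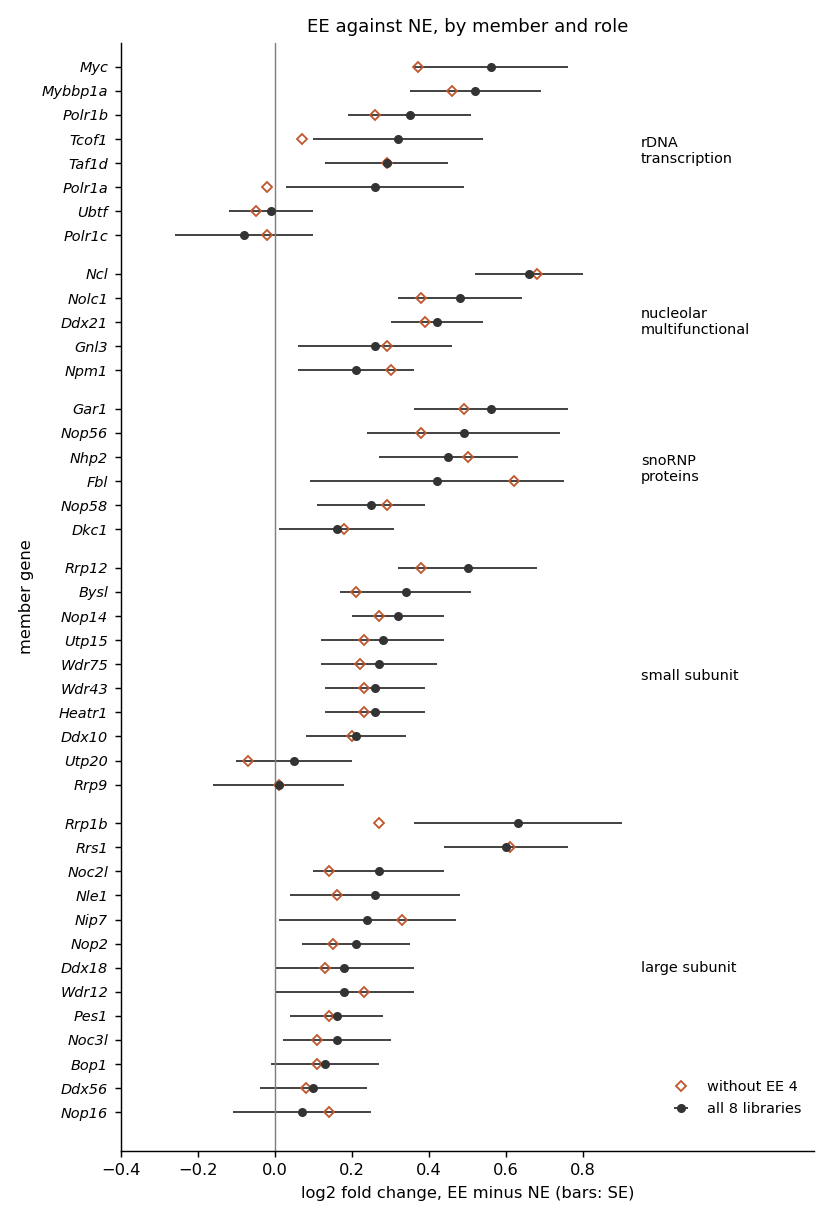
Log2 fold change (EE minus NE) of each of the 42 members with its SE, grouped by role, with all 8 libraries (filled circles) and without EE 4 (open diamonds). With all libraries 40 of 42 circles lie above 0, and the values of Polr1a, Tcof1 and Rrp1b move most towards 0 without EE 4.

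Levels between genes were compared per kilobase of coding sequence, with untranslated parts left out of the length. Npm1 stood highest on this scale, at 249 CPM per kb in EE and 215 CPM per kb in NE. It was followed by Nhp2 at 227 and 167, Ncl at 169 and 107, and Nip7 at 103 and 87.4 CPM per kb. Per library, Npm1 had 261, 257, 269.9 and 207 CPM per kb in EE 1 to EE 4, against 215, 193, 180.1 and 271 CPM per kb in NE 1 to NE 4. Ncl had 203, 140.5, 166 and 164 CPM per kb in EE, against 105, 102, 103 and 116 CPM per kb in NE. Nhp2 and Npm1 overlapped in their ranges, so their order is not beyond the spread. In EE 1 Ncl, at 203 CPM per kb, lay above Nhp2, at 198.5 CPM per kb. Reads from untranslated parts may enter the counts. The places of members with short coding sequences, such as Nhp2 (459 bases) and Nip7 (540 bases), are therefore uncertain. Fbl, Rrp12 and Polr1a were the 3 members lowest per length. The places of Npm1 and Fbl are uncertain, since they share 78.4% and 86.4% of their coding 50-base words with other genes. Median levels by role were 61.5 CPM per kb for the multifunctional proteins, 38.7 for rDNA transcription, 38.1 for snoRNP proteins, 21.8 for the large subunit and 17 for the small subunit.

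Library by library, the set median of log2 CPM relative to each gene's mean was 0.06, −0.02, 0.22 and 0.27 in EE 1 to EE 4, against −0.09, −0.38, −0.19 and 0.06 in NE 1 to NE 4. EE 3 and EE 4 were the high libraries and NE 2 the low one, while NE 4 equalled EE 1 and lay above EE 2. In 28 of 42 members NE 2 was the lowest library, and in 19 EE 4 was the highest. NE 4 was the highest in 7, among them Npm1, Gnl3, Dkc1 and Nop16. The number of EE libraries above every NE library was 4 in 6 members, 3 in 8, 2 in 13, 1 in 7 and 0 in 8. Without EE 2 the count of members that did not overlap was 14, against 8.79% of all genes, and without NE 4 it was 17, against 6.43%.

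**Figure D3:**
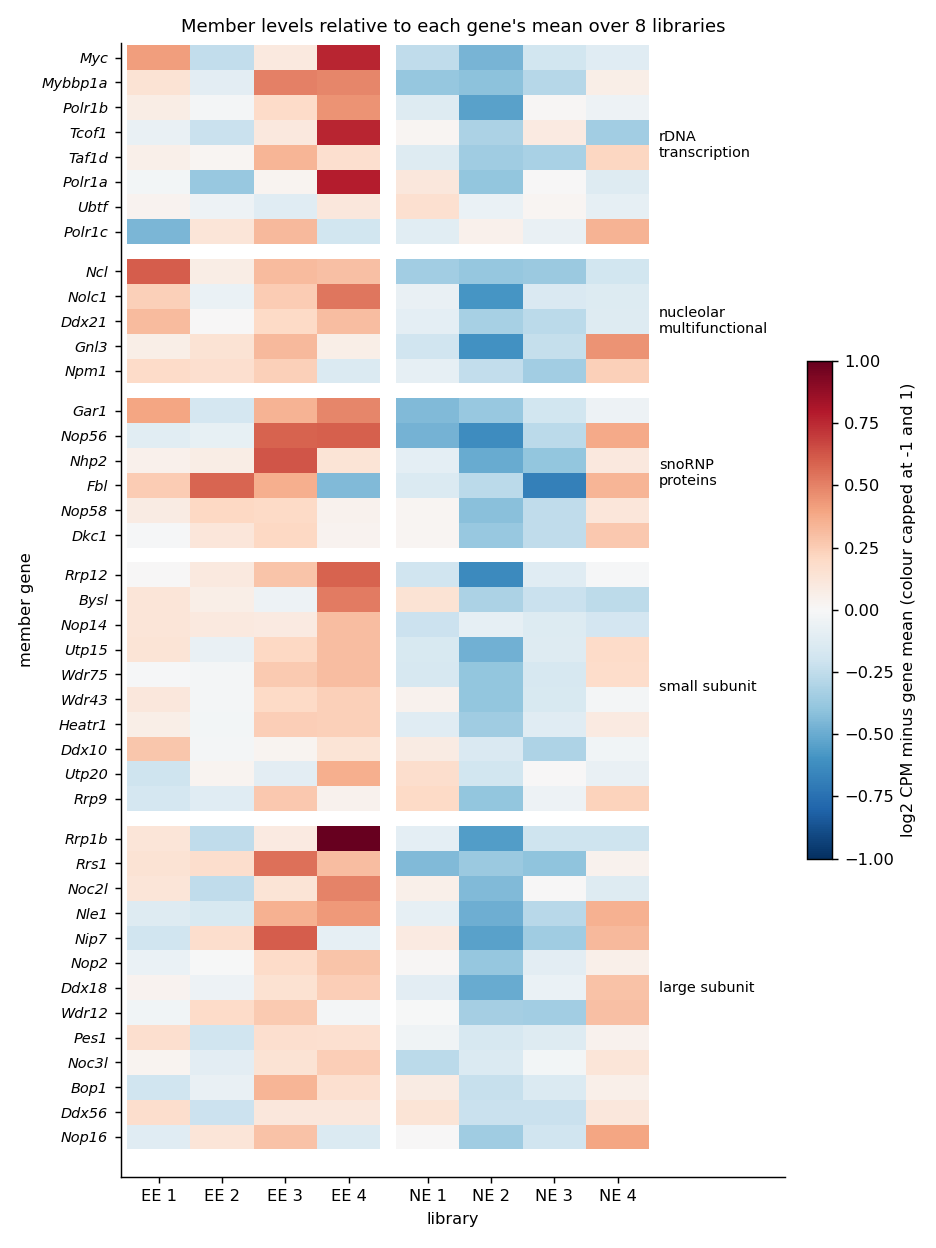
Deviation of log2 CPM from the gene's own average across the 8 libraries for each member (rows, by role) in each library (columns, EE left of NE), red above and blue below the mean, with colour capped at −1 and 1. NE 2 is blue in nearly every row, EE 3 and EE 4 are mostly red, and NE 4 is red in many snoRNP and large subunit rows.

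The members tended to share these ups and downs. Over the 861 pairs of members the median Pearson correlation of log2 CPM across the 8 libraries was 0.62, and 93.1% of pairs were above 0, from −0.73 for Ubtf with Polr1c to 0.98 for Nop56 with Wdr75. For pairs among every 20th gene tested (716 genes) the median was 0. Those genes were not matched to the members by level or function. The library pattern was not particular to the members, since cell division markers had medians of 0.35 in EE 3, 0.39 in EE 4 and −0.25 in NE 2. Without EE 4 the members' median was also 0.62. These correlations are descriptions, since all points share the same 8 libraries and their composition, and they include the difference between the groups.

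The members most like Ncl across the 8 libraries were Ddx21 (Pearson 0.95, Spearman 0.95), Gar1 (0.89, 0.83), Rrs1 (0.83, 0.76), Nop14 (0.82, 0.67) and Mybbp1a (0.80, 0.88). Nolc1 (0.79, 0.88) and Myc (0.79, 0.81) followed, and Myc had a Pearson correlation of 0.89 without EE 4. Among the other members Polr1c was the least like Ncl, at −0.34.

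Read composition differed between libraries along gene length, beside the difference in housing. In EE 4 the deviation of a gene from its mean correlated with coding length at a Spearman rho of 0.50 over the 42 members and 0.35 over 13431 genes. In NE 4 the values were −0.52 over the members and −0.36 over the genes. EE 3 gave −0.51 and −0.13, and NE 3 gave 0.56 and 0.15. Long members such as Polr1a and Tcof1 were high in EE 4, and short ones such as Nop16 and Nip7 were high in NE 4. The log2 fold change itself had a rho of 0.03 with length over the members, or −0.31 without EE 4. Over all genes it was 0.18, or 0.01 without EE 4. The 21 shorter members (459 to 1752 coding bases) had a median log2 fold change of 0.26 and the 21 longer ones (1980 to 8367) of 0.27, and 0.29 and 0.22 without EE 4. The part of length in the values of single members was not tested.

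**Figure D4:**
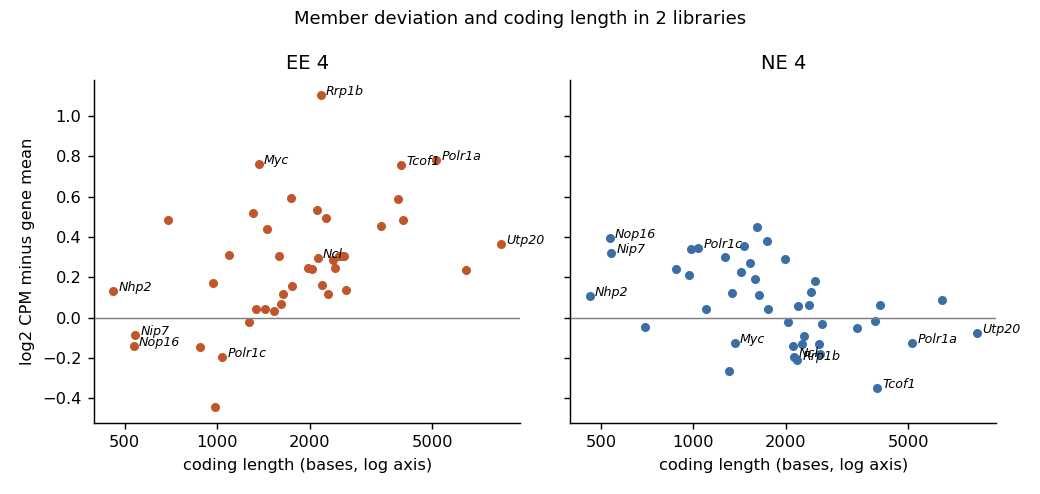
Deviation of each member from its mean log2 CPM over 8 libraries against its coding length (log axis), in EE 4 (left) and NE 4 (right), with 10 members labelled. Longer members tend to lie higher in EE 4 (rho 0.50) and lower in NE 4 (rho −0.52).

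Other genes of the same pathways, listed by function, had smaller median differences than the members, and with edgeR 0 of them had an adjusted p under 0.05. Of the 52 genes in the list of other large subunit genes 47 stood higher in EE (median log2 fold change 0.19). That list also holds genes of snoRNPs and their assembly, namely Nop10, Nhp2l1, Naf1, Shq1, Nufip1, Znhit6 and Znhit3. Of 45 other small subunit genes 33 stood higher (0.15). Pelp1, of a complex that acts on large subunit precursors, was at 28.7 ± 9.34 CPM in EE and 20.9 ± 1.63 CPM in NE (SD, n = 4 each), and Mrto4, a ribosome stalk assembly factor, at 31.9 ± 9.46 and 24.0 ± 9.83 CPM. At the low end were Eif6, which keeps new large subunits from joining small ones, with a log2 fold change of −0.14, and Gltscr2 with −0.13. On the small subunit side Noc4l and Nol10 had 0.52 (SE 0.17) and 0.49 (SE 0.16), while Utp11l and Rrp36 had −0.20 and −0.18. Pelp1 had a log2 fold change of 0.46, or 0.25 without EE 4, and Mrto4 one of 0.42, or 0.23 without EE 3 and 0.74 without NE 4.

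Among 10 other genes of RNA polymerase I, 6 were higher and the median was 0.07. The polymerase subunit gene Cd3eap had a log2 fold change of 0.34 (SE 0.19) and the promoter factor gene Taf1b 0.25 (SE 0.17). The small subunits encoded by Znrd1 and Polr1d, the second of which RNA polymerase III also uses, both had −0.27. Without EE 4 Znrd1 had −0.16, and Polr1d had −0.17 without EE 1 or EE 4 and −0.44 without EE 2. Polr1d stood at 72.4 ± 18.8 CPM in EE and 87.2 ± 8.51 CPM in NE (SD, n = 4 each). Of 13 genes of the RNA exosome, which trims precursor ends, 11 were higher (median 0.15), led by Exosc1 at 0.43 and the nuclease Dis3 at 0.36 (SE 0.12), with Exosc9 at −0.08 and C1d at −0.04 lowest, the second of which was 0.10 without EE 4.

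Genes around MYC were split. Of 12 genes of its network 7 were higher with all libraries (median 0.09) and 4 without EE 4 (median −0.02). Its paralogue Mycl had 60.5, 36.2, 90.8 and 130.5 CPM in EE 1 to EE 4, against 36.6, 47.2, 48.4 and 62.8 CPM in NE 1 to NE 4, a log2 fold change of 0.71 (SE 0.33), and the repressor Mnt had 0.50 (SE 0.19). Without EE 4 these were 0.38 for Mycl and 0.30 for Mnt. The repressors Mxd1 and Mxd4, which compete with MYC for the partner MAX, had −0.55 (SE 0.23) and −0.35 (SE 0.16). Mxd1 was at 340.1 ± 97.4 CPM in EE and 496 ± 92.2 CPM in NE (SD, n = 4 each). Of 29 MYC targets outside the nucleolus 27 were higher, with a median of 0.22 with and without EE 4. Mthfd1l, of mitochondrial folate metabolism, and Cad, which starts pyrimidine synthesis, had 0.56 (SE 0.18) and 0.51 (SE 0.21), while the chaperonin Hspe1 and the polyamine enzyme Odc1 had −0.10 and −0.05. Without EE 4 Cad had 0.28 and Odc1 0.03, and Hspe1 was 0.24 without NE 4 and 0.11 without EE 1.

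Of 12 genes of nucleolar stress and the p53 response 8 were higher (median 0.16). Cdkn2a, whose ARF product acts from the nucleolus, had 3.18, 3.45, 10.9 and 2.54 CPM in EE 1 to EE 4, against 0.95, 2.44, 1.5 and 4.64 CPM in NE 1 to NE 4, with EE 3 far above the other 7 libraries and a log2 fold change of 1.12 (SE 0.58), or 0.39 without EE 3. Rpl5, a ribosomal protein of the 5S particle whose pseudogenes may share its reads, had 0.48 (SE 0.21). The p53 targets Ccng1 and Cdkn1a had −0.33 (SE 0.13) and −0.25 (SE 0.21). Cdkn1a was −0.43 without EE 1 and −0.13 without EE 3 or NE 1.

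Markers of cell types differed beside the members. All 14 cell division markers were higher in EE, with a median log2 fold change of 0.35, or 0.30 without EE 4, and summed CPM of 1296 to 1908 in EE and 1137 to 1223 in NE. All 9 tested crypt stem cell markers were higher (median 0.43), with summed CPM of 687 to 1631 in EE and 665 to 858 in NE. Without EE 4, 8 of the 9 were higher and the median was 0.39. The stem cell list was lowest in EE 2 among the EE libraries, at −0.50, where the members were also lowest, at −0.02. In NE the 2 did not share their lowest library. The stem cell list was lowest in NE 1, at −0.57, where the members were at −0.09. The members were lowest in NE 2, at −0.38, where the stem cell list was at −0.31.

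Lists of other cells stood lower in EE. Colonocyte markers were lower in 9 of 9 (median −0.51, sums of 2214 to 7054 CPM in EE and 5028 to 9043 CPM in NE), and goblet cell markers in 10 of 10 (−0.45, sums of 10970 to 27120 CPM in EE and 23200 to 29120 CPM in NE). Of 14 general epithelium markers 12 were lower (median −0.21), with sums of 10780 to 16730 CPM in EE and 14260 to 18440 CPM in NE. The smooth muscle list was lower in 10 of 10 (median −0.78, sums of 688 to 4444 CPM in EE and 3552 to 5727 CPM in NE), and −0.45 without EE 4. Fibroblast markers were lower in 8 of 8, with sums of 479 to 2063 CPM in EE and 1572 to 1800 CPM in NE. Macrophage markers were lower in 8 of 8 (302 to 1148 CPM in EE, 569 to 892 CPM in NE) and plasma cell markers in 5 of 6 (840.1 to 3815 CPM in EE, 2901 to 4940 CPM in NE). B cell markers were lower in 6 of 6 (6.66 to 45.7 CPM in EE, 24.9 to 55.0 CPM in NE) and T cell markers in 7 of 7 (13.8 to 36.2 CPM in EE, 27.7 to 43.6 CPM in NE). Medians in the order fibroblast, macrophage, plasma cell, B cell and T cell were −0.31, −0.21, −0.74, −0.80 and −0.48, and without EE 4 −0.02, −0.02, −0.38, −0.51 and −0.20. No tested marker of any list was at 0 in a library. The part of cell composition in the members' values was not tested.

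**Figure D5:**
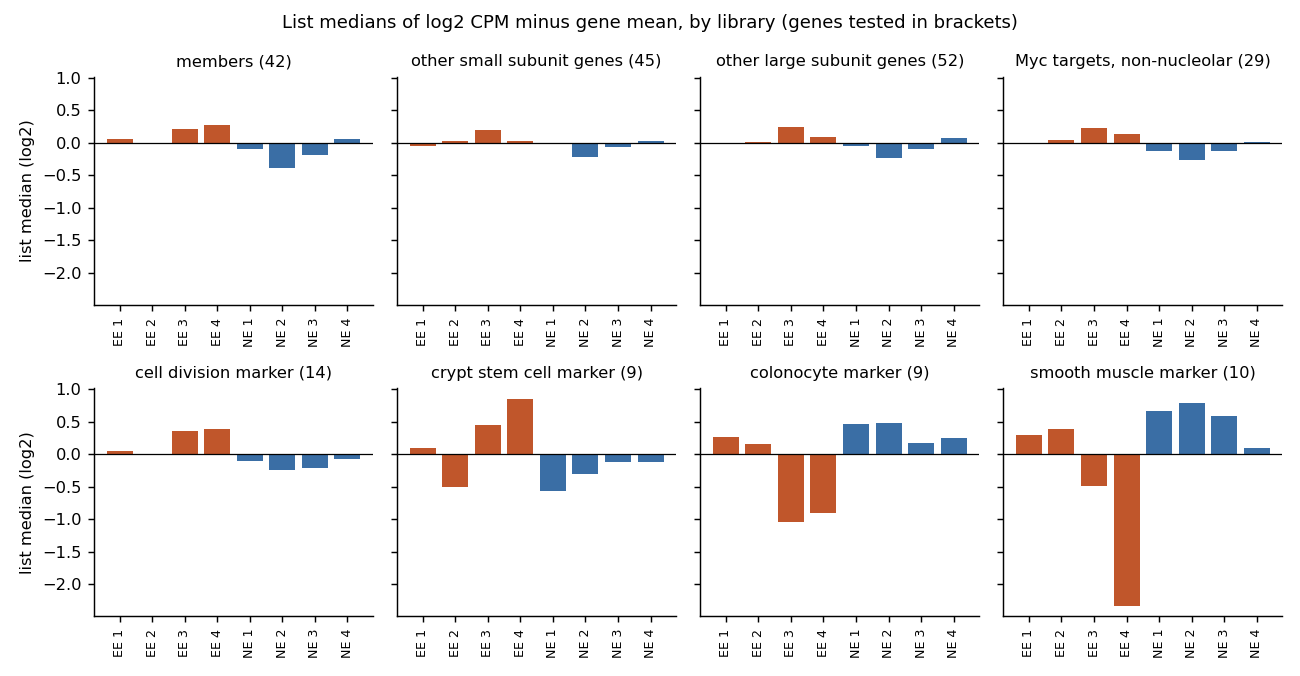
Median over each list of the deviation in log2 CPM from the gene's own average, in every library (EE bars left, NE bars right; number of genes tested in brackets). The members are high in EE 3 and EE 4 and low in NE 2, as are the cell division markers, while colonocyte and smooth muscle markers are low in EE 3 and EE 4 (smooth muscle −0.49 and −2.33).

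Several members host snoRNAs in their introns. An annotated snoRNA lies inside 7 of the 42 members (16.7%), against 228 of 13326 protein-coding genes tested (1.71%). Taf1d holds 8, Nop56 holds 5, Nop58 holds 4, and Ncl, Gnl3 and Wdr43 hold 3 each, among them Snora75 and Snord82 in Ncl, and Dkc1 holds 1. The median log2 fold change was 0.26 in members with a snoRNA and 0.26 in those without. Since the sources used here do not give the counting program or its strand setting, reads from snoRNAs may enter these counts, as may reads from the opposite-strand genes that overlap an exon in 18 members. Without the 8 members that share at least 10% of their coding 50-base words with other genes, 32 of 34 stood above 0 and the median was 0.26.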

How the data were processed

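Total RNA was made into rRNA-depleted stranded libraries and read as 50-base single ends, per the labels' protocols. The submitters' processing notes list mm10, Novoalign 2.08.01 and DESeq 1.14.0. Neither the annotation nor the counting program and its strand setting is given in the sources used here. The authors deposited raw read counts for 16130 genes in 8 libraries, beside log2 ratios between the groups and FDR values (adjusted p-values), per the file headers.

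The test was run on these counts with edgeR 4.0.16 in R 4.3.3 (filterByExpr, TMM, robust quasi-likelihood test, Benjamini-Hochberg threshold 0.05, EE against NE, no covariate). The biological coefficient of variation was 0.219, and library totals limit the precision of low genes. A prior count of 2 was added for log2 CPM. The labels do not say that libraries are separate animals, so p-values measure the spread between these samples. No 2 libraries were alike within sampling noise (chi-square per degree of freedom at least 7.46). Coding lengths, coordinates and shared 50-base words came from GENCODE M21 (15948 identifiers matched).

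The members, role groups and gene lists were chosen with earlier results of these data known. Values in every library were given for Ncl, Myc, the highest and lowest member of each role group by fold change and the 4 members highest per length. In each pathway list the 2 highest and 2 lowest genes were named. The snoRNP genes of the large subunit list and the t-UTP genes Cirh1a and Nol11 were named as well. Of the members most like Ncl, the 5 with the highest Pearson correlation were named. Exosc6, Ms4a18, Olfm4, Tnfrsf17, Pax5 and Cd5 of the lists were not tested. Alternatives were DESeq2 1.42.0, limma-voom (limma 3.58.1), RLE and upper-quartile scaling, other filters, a threshold of 0.1, a replicate block and each library left out.

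Simulated data for EE against NE (14311 genes) served to check the tests, with 100 genes changed 2-fold and 100 changed 4-fold. edgeR recovered 60 and 93 with 8 false calls, limma-voom 56 and 94 with 7, and DESeq2 77 and 100 with 39.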

Additional observations from a re-analysis of the deposited data

Results flagged for a closer look

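In 3 of 84 groups of 4 values (42 members in EE and in NE), 1 library lay farther from the others than Dixon's 95% critical ratio for 4 values, and chance gives about 1 in 20. Nhp2 was at 136.59 CPM in EE 3, with the other EE libraries at 91.1 to 96.6 CPM (ratio 0.880). Pes1 was at 55.12 CPM in EE 2, with the other EE libraries at 70.7 to 71.2 CPM (ratio 0.972). Rrs1 was at 22.87 CPM in NE 4, with the other NE libraries at 16.3 to 17.1 CPM (ratio 0.880).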

How the results depend on the processing

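With DESeq2, 1 member (Ncl, which had helped to choose the set) and 12 genes in all passed, against 0 and 0 with edgeR. Leaving out 1 library at a time, the count of all genes called ran from 0 to 1 (1 without EE 2), the members called stayed at 0, members above 0 ran from 38 to 41, and their median log2 fold change ran from 0.18 (without NE 2) to 0.34 (without NE 4). Members that did not overlap ran from 5 to 17, with 14 without EE 2 and 17 without NE 4, against 6 in all libraries. The share of all genes that did not overlap was 8.79% without EE 2 and 6.43% without NE 4, against 2.87% in all libraries, and was 3.64% to 4.45% without any other library. In 25 of 42 members leaving out some 1 library moved the log2 fold change by more than 1.5 times or turned its sign. With limma-voom, RLE or upper-quartile scaling, either other filter and a threshold of 0.1 no count of calls changed, 40 members stood above 0 and the median lay between 0.25 and 0.27. RLE and upper-quartile scaling put the median of all genes at 0.005 and −0.004.

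With the replicate number as a block, 0 genes passed, 40 members stood above 0 and the median was 0.27. Same-numbered EE and NE libraries correlated at 0.25, 0.01, −0.18 and −0.04, and 1 of 4 EE libraries correlated best with its own number. Whether the numbers pair the samples cannot be told from these values, and the labels do not say. Leaving out members with shared sequence was added after seeing the data. The lowest member, Fbl, had 15 to 29 counts per library, and a p that misses the threshold at 4 libraries against 4 does not show that values were equal.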

Other observations

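The RNA of the U3 particle and other snoRNAs of ribosome biogenesis are listed with their own counts, and these genes were chosen after their values were seen. Their directions were mixed. Rnu3a, a U3 gene, had 33.6, 32.0, 24.0 and 63.6 CPM in EE 1 to EE 4, against 18, 29.4, 22.1 and 27.9 CPM in NE 1 to NE 4. Its log2 fold change was 0.66 (SE 0.29), or 0.30 without EE 4, and EE 3 lay within the NE range. Snord17 had 54.6 to 95.8 CPM in EE and 56.9 to 103 CPM in NE, a log2 fold change of 0.21 (SE 0.23) that ran from 0.12 without NE 2 to 0.45 without NE 4. Snora74a had 141 to 249 CPM in EE and 175 to 495 CPM in NE, with NE 4 highest and a log2 fold change of −0.50 (SE 0.32), or −0.09 without NE 4. Snord118 had 0.21 to 2.54 CPM in EE and 1.33 to 2.29 CPM in NE, a log2 fold change of −0.57 (SE 0.49), or −0.26 without EE 1 and −1.08 without EE 4. Short RNAs are captured unevenly by such libraries, so these values are given as listed.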
